A study of Arabidopsis thaliana with 4 samples.

Results

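The 9 genes described here are regulators of the Arabidopsis thaliana shoot apex, and they were taken by gene identifier from the 32548 genes of the deposited table. They are the class I KNOX homeobox genes STM, KNAT1, KNAT2 and KNAT6, the stem cell genes WUS and CLV3, and the boundary NAC genes CUC1, CUC2 and CUC3. They were compared in homozygous bdt1 mutants and the wild type Col-0, the background of the mutant, with 2 libraries of each genotype. RNA came from whole seedlings aged 10 days, raised on MS plates at 22 °C under 16 h of light and 8 h of darkness. The mutant is named bdt1 in the titles and btl1 in the source label, and the labels give no allele. The labels call the libraries biological replicates and do not say how many plants each held.

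The shoot apical meristem is a small dome of dividing cells that makes all above-ground organs. KNOX proteins keep its cells undifferentiated, WUS and the secreted peptide CLV3 hold the stem cell number in a feedback loop, and CUC proteins mark the boundaries between the meristem and young organs and are needed for STM expression. In leaves and other organs these genes are classic targets of Polycomb repression, in which the histone mark H3K27me3 keeps chromatin silent, and plants that lack Polycomb activity express KNOX genes outside the meristem. BDT1 is tied by background knowledge, not by the deposited table, to AT4G11560, which encodes a BAH-domain protein of the kind that binds modified histones.

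The comparison asks whether these repressed regulators differ in level when BDT1 is mutated. No change of any of them was detected in bdt1. Of the 9 genes, 8 had the mean normalised read count of 1 needed for testing, and WUS had no read in any library. None of the 8 passed the test (limma on log2 of the normalised read count plus 1, Benjamini-Hochberg adjusted p from 0.415 to 0.977), and 0 reached an unadjusted p under 0.05. The edgeR quasi-likelihood test and DESeq2 on the recovered read counts also called 0 of them, with 0 at an unadjusted p under 0.05 in either. Of all 23256 genes tested, 2.06% passed in limma and 2.57% in edgeR. The median log2 fold change of the 8 genes was 0.07, with 4 positive and 4 negative, and that of all tested genes was 0.00. Their median size of change, sign left aside, was 0.11 on the log2 scale, against 0.14 over all tested genes.

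Sequence shared by the CUC genes and by the promoters is shown first, since it is known how each is read by regulators. CUC1 and CUC2 are cleaved by the microRNA miR164, whereas CUC3 is not known as its target. The mature miR164a and its best match in each CUC transcript are given 5′ to 3′ as DNA letters (RefSeq, TAIR10.1). In the microRNA, capitals mark the seed, bases 2 to 8. In the sites, capitals mark bases that match the full complement of miR164a, and G:U pairs are counted as mismatches.
miR164a (chr2:19520770-19520790, plus strand): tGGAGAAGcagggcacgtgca
CUC1 (chr3:5111137-5111157, plus strand): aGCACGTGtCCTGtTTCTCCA
CUC2 (chr5:21902301-21902321, minus strand): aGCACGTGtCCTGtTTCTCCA
CUC3 (chr1:28672053-28672073, minus strand): caCAtGctaCtaGaTTCTCCA
The sites of CUC1 and CUC2 had the same 21 bases, lay in coding exons and matched the full complement of miR164a at 18 positions. Counted from 1 at the 5′ end of the site, with the base of the full complement first, both carried T1A, C9T and C14T. At C9T and C14T the T faces a G of miR164a, so that a G:U pair could form there. The best stretch of CUC3 matched the full complement at 12 of 21 positions.

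GA repeats and the telobox are motifs known to bind factors that recruit plant Polycomb complexes. GAGAGAGA, sought on both strands from 250 bases before to 50 bases after the annotated start of each gene, was found in 6 of the 9 genes (66.7%) and in 8.38% of 27443 protein-coding genes. The telobox AAACCCTAA, sought likewise, was found in CUC2 alone of the 9 and in 3.6% of all. Each of the 6 repeats read TCTCTCTC on the strand of its gene. The 30 bases around each repeat are printed on that strand, with the run of the repeat in capitals.
KNAT2 (chr1:26576497-26576526, plus strand): ttgtctctaTCTCTCTCTCTCtttgaagca
KNAT6 (chr1:8302640-8302669, minus strand): cctcgagccTCTCTCTCTCTCtacacactc
WUS (chr2:7810796-7810825, minus strand): atatataatctTCTCTCTCacacaaaacct
CLV3 (chr2:11665757-11665786, minus strand): ttctctctttaTCTCTCTCactcagtcact
CUC2 (chr5:21903813-21903842, minus strand): ttagggtttttTCTCTCTCaaacaaaagct
CUC3 (chr1:28673997-28674026, minus strand): acactccatttTCTCTCTCtatctctatta
The repeats lay close to the annotated start, from 9 bases before it in KNAT6 to 30 bases past it in CUC3. In CUC2 the telobox, read as TTAGGGTTT on the gene's strand, ended just before the repeat, as the line for CUC2 shows in lower case. The windows of STM, KNAT1 and CUC1 held no GAGAGAGA. Among the 1916 tested genes with the repeat, 1.15% were called higher and 0.783% lower in bdt1, against 1.24% and 0.887% of the 22198 tested genes that had a window. A match is a description of the letters and no evidence of binding.

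The libraries held 22914893 and 25120921 recovered reads in bdt1, and 23529796 and 27435729 in Col-0. At an adjusted p under 0.05 limma called 280 genes up and 199 down in bdt1. The transcript of AT4G11560 was at 313 and 324 normalised reads in the 2 bdt1 libraries, against 1135 and 1117 in Col-0, which limma put at -1.82 on the log2 scale (SE 0.08, adjusted p = 3.89e-05). That transcript was thus reduced and not absent in bdt1. This call, like each of the limma calls over the whole table, was lost in limma without either bdt1 library. The size of the drop hardly moved. It was -1.79 in limma and -1.80 in edgeR without bdt1 replicate 1, and -1.84 and -1.85 without bdt1 replicate 2.

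Levels of the 9 genes spanned a wide range, and their order was nearly the same in both genotypes. Per kb of exon, KNAT1 had the highest normalised read count, at 192 ± 15.2 in bdt1 and 200.5 in Col-0, where the libraries stood at 208 and 193 (SD, n = 2 each). KNAT6 followed at 123 ± 11.5 in bdt1 and 124 ± 13.8 in Col-0, and STM at 79.6 ± 10.2 in bdt1 and 71.6 ± 12.5 in Col-0 per kb. CUC3 was the most abundant boundary gene, at 38.2 ± 4.94 per kb in bdt1 and 39.5 ± 5.43 in Col-0. These 4 genes did not overlap one another in any library on this scale. KNAT2, CUC1 and CUC2 lay between 6.57 and 24.6 per kb, with ranges that overlapped, so their order was not resolved. CLV3 stayed under 4 per kb in every library, and WUS was at 0.

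**Figure D1:**
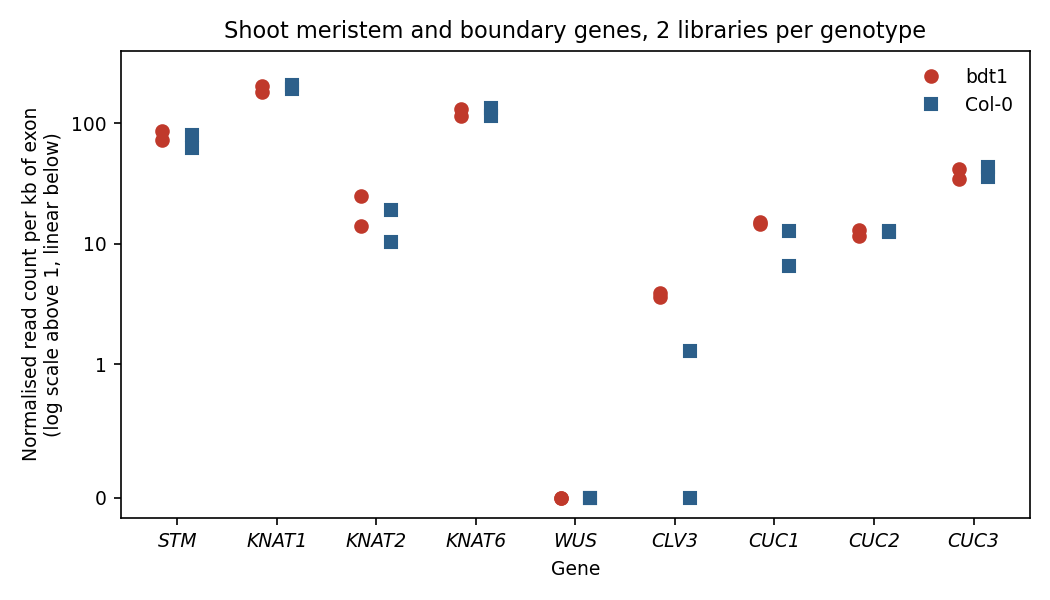
Normalised read count per kb of exon (vertical axis, logarithmic above 1 and linear below) for the 9 genes, with 1 point for each of the 2 bdt1 libraries (circles) and 2 Col-0 libraries (squares). The points of both genotypes mingle for STM, KNAT1, KNAT2, KNAT6, CUC2 and CUC3, while the bdt1 points lie above the Col-0 points for CLV3 and CUC1.

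STM (AT1G62360; chr1:23058582-23062063, minus strand, TAIR10.1) maintains the meristem throughout the life of the plant. It had 123 and 148 normalised reads in bdt1, against 107 and 137 in Col-0. The higher Col-0 library lay above the lower bdt1 library, so the groups overlapped. The log2 fold change was 0.16 (SE 0.19, 95% interval -0.27 to 0.58, limma adjusted p = 0.727). It was -0.021 without Col-0 replicate 1.

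KNAT1 (AT4G08150; chr4:5147699-5151159, minus strand), also called BREVIPEDICELLUS, shapes internodes and pedicels and acts alongside STM. It had 409 and 366 normalised reads in bdt1, against 419 and 390 in Col-0. Both genotypes covered nearly the same range. This was the most precisely measured of the 9 genes, with a log2 fold change of -0.06 (SE 0.10, 95% interval -0.29 to 0.17, limma adjusted p = 0.811). The estimate was 0.020 without bdt1 replicate 2.

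KNAT6 and KNAT2 are close relatives within the KNOX class, so reads from alike stretches could have been split between them and their single values are less certain. KNAT6 (AT1G23380; chr1:8297241-8302651, minus strand) supports STM in meristem and boundary formation. This gene had 161 and 184 normalised reads in bdt1, against 161 and 188 in Col-0. The libraries of the genotypes overlapped, with a log2 fold change of -0.01 (SE 0.15, 95% interval -0.36 to 0.33, limma adjusted p = 0.974). The sign turned without Col-0 replicate 2 (0.098) and without bdt1 replicate 1 (0.080). KNAT2 (AT1G70510; chr1:26576486-26582879, plus strand) is known for a role in carpel and pedicel development. It had 45.1 and 25.4 normalised reads in bdt1, against 34.7 and 19.0 in Col-0. Libraries of 1 genotype differed from each other more than the genotypes did. Its log2 fold change of 0.38 (SE 0.40) had a 95% interval from -0.54 to 1.31 and a limma adjusted p of 0.689. The sign turned here too, at -0.034 without Col-0 replicate 2 and -0.019 without bdt1 replicate 1.

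WUS (AT2G17950; chr2:7808871-7810811, minus strand), the homeobox gene of the organizing centre below the stem cells, had 0 reads in every library. A count of 0 allows up to 3 reads in 48035814 for bdt1 and in 50965525 for Col-0, a limit that covers counting error alone. CLV3 (AT2G27250; chr2:11664978-11665797, minus strand) encodes the peptide signal that limits WUS, and had 3 and 3 reads in bdt1, against 1 and 0 in Col-0. Both bdt1 libraries were higher, a separation in this direction found in 25.2% of all tested genes, with 23.7% separated the other way. The ratio of the summed reads, 6 in bdt1 and 1 in Col-0, was 6.2 after scaling for library size, with an exact 95% interval from 0.752 to 285. This interval too covers counting error alone and leaves out the spread between libraries. The log2 fold change was 1.50 (SE 0.83, 95% interval -0.39 to 3.39, limma adjusted p = 0.415). Whether CLV3 differed was not detectable at this depth. In whole seedlings the few cells that express WUS and CLV3 are diluted by all other tissue, and fewer cells of a type cannot be told apart from less RNA per cell.

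CUC1 (AT3G15170; chr3:5109782-5111608, plus strand) acts with CUC2 to separate the cotyledons and to start the meristem. It had 17.9 and 18.6 normalised reads in bdt1, against 15.8 and 8.12 in Col-0. Both bdt1 libraries lay above both Col-0 libraries, as they did in 25.2% of all tested genes. Col-0 replicate 2 was the low library. The log2 fold change was 0.64 (SE 0.44, 95% interval -0.37 to 1.65, limma adjusted p = 0.519), and 0.20 without Col-0 replicate 2 and 1.08 without Col-0 replicate 1. CUC2 (AT5G53950; chr5:21901704-21903854, minus strand) had 18.9 and 16.6 normalised reads in bdt1, against 18.0 and 18.4 in Col-0. The bdt1 libraries enclosed the Col-0 libraries. Its log2 fold change was -0.03 (SE 0.36, 95% interval -0.85 to 0.78, limma adjusted p = 0.977), and 0.057 without bdt1 replicate 2.

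CUC3 (AT1G76420; chr1:28671806-28674045, minus strand), also a boundary gene, is the one without a close match to miR164 shown above. It had 59.9 and 49.9 normalised reads in bdt1, against 62.3 and 51.2 in Col-0. The genotypes overlapped almost fully, with a log2 fold change of -0.05 (SE 0.24, 95% interval -0.60 to 0.50, limma adjusted p = 0.948). It was 0.093 without Col-0 replicate 1 and 0.084 without bdt1 replicate 2. The loci that encode miR164 gave few reads, so that nothing could be read from them. MIR164b, the most abundant, had 5 and 14 reads in bdt1 and 5 and 10 in Col-0, and MIR164a and MIR164c had at most 3 reads in any library. These are reads of the loci, not a measure of the mature microRNA.

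The precision of these comparisons set what could be seen. For 7 of the 8 tested genes the difference between genotype means on the log2 scale was smaller than the larger gap between libraries of 1 genotype, as it was for 65.2% of all tested genes. The 95% interval lay within a 2-fold change either way for 5 genes, namely STM, KNAT1, KNAT6, CUC2 and CUC3. It did not for KNAT2, CUC1 and CLV3, for which a 2-fold increase stayed within the interval. Only CLV3 and CUC1 showed groups that did not overlap. Over all tested genes 48.9% did so in either direction.

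**Figure D2:**
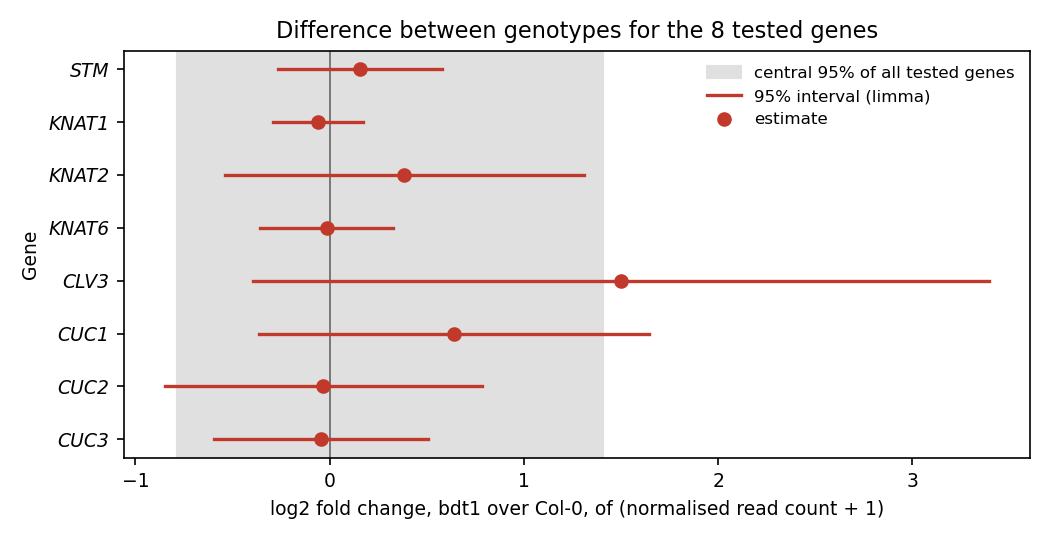
Log2 fold change of bdt1 over Col-0 (horizontal axis, on the normalised read count plus 1) for the 8 tested genes, with limma 95% intervals as lines. The grey band holds the central 95% of all tested genes, from -0.78 to 1.41. Every interval includes 0, and those of CLV3, CUC1 and KNAT2 are the widest.

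No gene of the wider network around these genes was called either. Of 101 genes in 12 lists of partners, regulators and outputs, 98 were tested and 0 passed in either direction (limma, lowest adjusted p = 0.111), against 2.06% of all tested genes. The edgeR and DESeq2 tests also called 0. At an unadjusted p under 0.05 there were 20, or 20.4%, against 3807, or 16.4%, of all tested genes. The medians of the 12 lists ran from -0.18 to 0.19 on the log2 scale. That count of 0 depended on the fit. With a replicate block limma called 5 genes of the lists higher and 1 lower, and edgeR 5 higher and 4 lower. Without Col-0 replicate 1, limma called 0 higher and 1 lower, and edgeR 4 higher and 1 lower. Without Col-0 replicate 2, limma called 1 higher and 0 lower, and edgeR 5 in each direction. Apart from the genes most alike in profile, given below, the genes named from these lists are the 20 with an unadjusted p under 0.05. That choice was made after their values were seen.

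Among partners, the 13 BELL homeodomain genes, whose proteins pair with KNOX proteins and carry them to DNA, had a median log2 fold change of 0.10. BLH1 and BLH6 were at 0.24 (SE 0.09, limma adjusted p = 0.213) and 0.19 (SE 0.07, limma adjusted p = 0.219). The 5 class II KNOX and KNATM genes had a median of 0.00, and KNAT3, which promotes differentiation where class I genes oppose it, was at 0.21 (SE 0.06, limma adjusted p = 0.149). The 4 HAM genes, partners of WUS, had a median of -0.10. Of 14 other WOX genes 11 were tested, with a median of -0.09. WOX4, which maintains the vascular cambium, had 136 and 167 normalised reads in bdt1, against 231 and 209 in Col-0, a difference of -0.54 on the log2 scale that missed the threshold (SE 0.15, limma adjusted p = 0.128). WOX14, a close relative of WOX4, had 40.01 and 39.2 normalised reads in bdt1, against 23.3 and 22.9 in Col-0, and was at 0.75 in the other direction (SE 0.29, limma adjusted p = 0.246).

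The 10 CLAVATA receptor and signalling genes, through which the CLV3 peptide is perceived, had a median of -0.03. CRN, a pseudokinase that works with the receptor protein CLV2, was at -0.39 (SE 0.13, limma adjusted p = 0.2), and the receptor kinase gene BAM2 was at 0.18 (SE 0.08, limma adjusted p = 0.279). Of the 7 repressors of KNOX and CUC genes, AS1, which keeps KNOX genes off in leaves, was at 0.15 (SE 0.06, limma adjusted p = 0.289). The list had a median of 0.02. The 5 hormone genes downstream of KNOX proteins had a median of -0.18, among them the cytokinin synthesis gene IPT5 at -0.46 (SE 0.19, limma adjusted p = 0.278).

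Among 9 other organ boundary genes the median was 0.19. LSH4, a gene that is activated by CUC1, had 383 and 361 normalised reads in bdt1, against 302 and 271 in Col-0 (log2 fold change 0.38, SE 0.11, limma adjusted p = 0.131). LOB was at 0.55 (SE 0.21, limma adjusted p = 0.246) and JLO at -0.72 (SE 0.31, limma adjusted p = 0.304). The 4 other NAC genes targeted by miR164 had a median of -0.12, with NAC080 at 0.50 (SE 0.15) and ORE1, a regulator of leaf ageing, at -0.60 (SE 0.22). The 5 class III HD-ZIP genes, which set the upper side of organs and support the meristem, all had a negative sign, with a median of -0.13 and CNA at -0.20 (SE 0.07, limma adjusted p = 0.188). The 9 organ polarity genes had a median of -0.05. KAN3 was at 0.42 (SE 0.15, limma adjusted p = 0.208) and KAN2 at 0.30 (SE 0.10, limma adjusted p = 0.186), both genes of the lower side of organs. FIL and YAB3, YABBY genes of that side, were at -0.19 (SE 0.08, limma adjusted p = 0.256) and -0.17 (SE 0.06, limma adjusted p = 0.254).

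**Figure D3:**
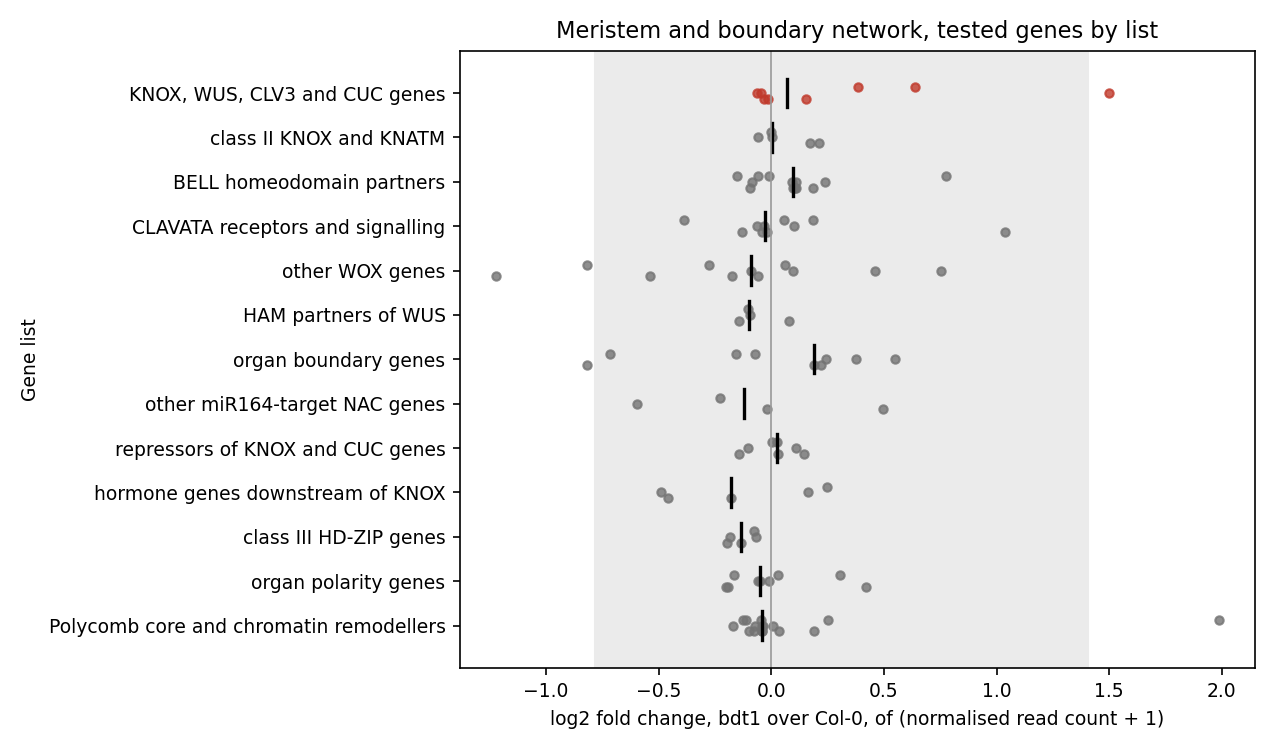
Log2 fold change of bdt1 over Col-0 (horizontal axis, on the normalised read count plus 1) for each tested gene, by list, with the 8 tested KNOX, CLV3 and CUC genes in red and lists of the wider network in grey. Black bars mark list medians, which run from -0.18 to 0.19 in the grey lists, and the shaded band holds the central 95% of all tested genes.

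The Polycomb machinery itself and the remodellers that oppose it showed no call. The 16 genes had a median log2 fold change of -0.04. The largest value belonged to AT3G23060, annotated as a RING/U-box protein, with 14.7 and 13.7 normalised reads in bdt1, against 2.14 and 3.69 in Col-0. Both bdt1 libraries were well above both Col-0 libraries, a separation in this direction found in 25.2% of all tested genes. The limma log2 fold change of 1.99 (SE 0.53) had an adjusted p of 0.111.

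Genes next to the 9 on the chromosome were also examined, a comparison chosen after the data were seen. Of the 18 nearest protein-coding genes, 1 on each side, 15 were tested, and 1 was lower and 0 were higher, against 0.856% lower and 1.2% higher over all tested genes. AT1G23390, a kelch repeat F-box gene 6313 bases from KNAT6, had 805 and 977 normalised reads in bdt1, against 2404 and 3728 in Col-0. In limma it fell by 1.75 (log2 scale, SE 0.18, adjusted p = 0.00325), a call lost without the mean-variance trend. For KNAT6 itself no difference was detected, with the interval given above. On the other side of KNAT6, MENG, at a distance of 299 bases, was at 0.07 on the log2 scale (SE 0.08). The median over the 15 tested neighbours was 0.06. None of the 9 genes overlapped another annotated gene.

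For the 7 of the 9 genes with a mean normalised read count of at least 10, which leaves out WUS and CLV3, the most alike genes over the 4 libraries were sought among 116 genes of the other lists with the same minimum. Likeness was the root mean square difference in log2(normalised read count + 1) after subtracting the Col-0 mean. CUC2 was nearest to NAC1 at 0.03, and KNAT6 was nearest to KNAT4 at 0.04. KNAT1 was nearest to NAC1 at 0.05 and STM to CLV2 at 0.06. NAC1 was nearly flat, from -0.07 to 0.035 on this scale, so that a small distance to it marks a flat profile. Shared regulation was not tested. CUC3 was nearest to BAM3 at 0.08. KNAT2 and CUC1, the noisier genes, had their nearest at 0.21 (LAS) and 0.29 (GA20OX1).

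The samples were checked against markers of the tissues a seedling holds. Leaf and root markers were all detected, and no marker of the 5 lists was at 0 in all libraries. For comparison with the calls below, limma called 1.2% of all tested genes higher and 0.856% lower in bdt1. The summed normalised read count of the 9 genes was 811 to 839 in bdt1 and 812 to 818 in Col-0. Markers of the shoot apex and epidermis summed to 8770 to 9341 in bdt1 against 10622 to 11817 in Col-0, a sum that rests mostly on the epidermal gene PDF1. PDF1 had 5472 and 5062 normalised reads in bdt1 against 7289 and 6491 in Col-0 and fell by 0.39 (SE 0.07, limma adjusted p = 0.0319), the 1 call among 8. Of these 8 genes 3 had a positive log2 fold change, namely the apex genes DRN, DRNL and UFO, which had few reads. Their mean normalised read counts were 7.04, 1.21 and 2.47, and DRNL was negative in edgeR, at -0.48. The other 5 were negative. ATML1 at -0.21 (SE 0.07, limma adjusted p = 0.204) and ANT at -0.16 (SE 0.06, limma adjusted p = 0.262) were lower in both bdt1 libraries than in either Col-0 library. DRN was separated the other way, at 9.46 and 7.82 normalised reads in bdt1 against 6.32 and 4.55 in Col-0. Of all tested genes, 23.7% were separated lower and 25.2% higher. The apex genes AIL6 and AIL7 overlapped between genotypes. Markers of dividing cells summed to 3691 to 3778 in bdt1 against 4298 to 4763 in Col-0, and 1 of 6, the cytokinesis gene KN, fell by 0.42 (SE 0.08, limma adjusted p = 0.0382). The limma call of KN was lost without Col-0 replicate 2, where its log2 fold change was -0.456 in limma and -0.455 in edgeR. All 6 division markers had a negative sign.

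Leaf markers summed to 538470 to 543260 in bdt1 and 611140 to 616320 in Col-0. Most of that gap was the antenna gene CAB1, the 1 call among 4 (log2 fold change -0.46, SE 0.08, limma adjusted p = 0.0304), and quantile normalisation ended its call. RBCS1A and GLK1 did not pass (limma adjusted p = 0.452 and 0.343), and CA1 had the opposite sign, at 0.07. Root markers were at 3680 to 3719 in bdt1 and 3595 to 3894 in Col-0, with 0 of 6 called, against 2.06% of all tested genes. Flower and seed markers summed to only 231 to 267 in bdt1 and 69.8 to 127 in Col-0, and 1 of 5, the seed storage gene CRA1, rose by 1.59 (SE 0.30, limma adjusted p = 0.0372). Most of that sum was CRA1. All 5 had a positive sign, with a median log2 fold change of 0.89. PI at 0.89 (SE 0.37, limma adjusted p = 0.282) and OLEO1 at 1.17 (SE 0.64, limma adjusted p = 0.405) were also higher in both bdt1 libraries than in either Col-0 library. A separation in this direction was found in 25.2% of all tested genes. AP3 and AG overlapped between genotypes. The limma call of CRA1 was lost without Col-0 replicate 2, where its log2 fold change was 1.10 in limma and 1.11 in edgeR. The calls of PDF1, KN and CRA1 were also lost with a pseudocount of 0.1, and those of all 4 marker genes without the mean-variance trend. The part of these marker differences in the values of the 9 genes was not tested.

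**Figure D4:**
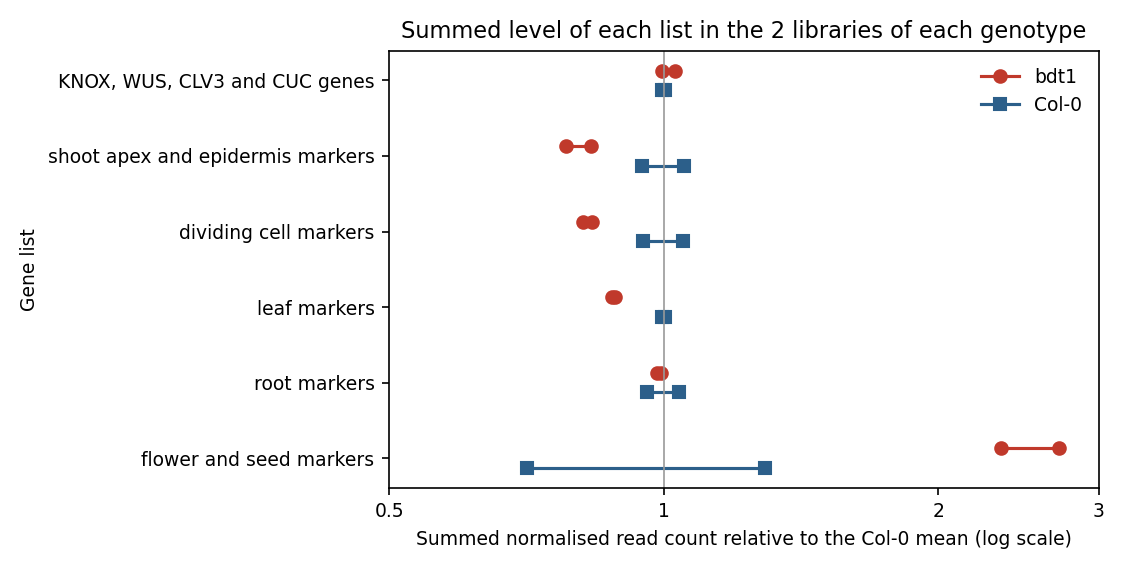
Summed normalised read count of each list relative to its Col-0 mean (horizontal axis, logarithmic), with 1 point per library, bdt1 as circles and Col-0 as squares. The KNOX, WUS, CLV3 and CUC genes and the root markers overlap between genotypes, while the sums of the shoot apex and epidermis, dividing cell and leaf lists lie lower in bdt1 and that of the flower and seed list higher. In each of those 4 lists 1 gene was called in limma, against 2.06% of all tested genes. PDF1, CAB1 and CRA1 carry most of the gap in the apex, leaf and flower lists.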

How the data were processed

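RNA of whole seedlings was sequenced as paired reads of 150 bases. Per the submitters' processing notes HISAT2 2.2.0, edgeR and TAIR10 were used. Counter, annotation version, strandedness: not given in the sources used here. Deposited values are a signal, a normalised read count that the authors made per gene and library. They had the form of edgeR pseudo-counts, read counts adjusted to a common library size by quantiles of a negative binomial distribution. Inverting that adjustment (fitted dispersion 0.005439) gave whole reads for 100% of values within 0.001 reads, a step tested beforehand on simulated counts.

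limma 3.58.1 (R 4.3.3) was fitted to log2(normalised read count + 1) with a mean-variance trend for genes with a mean of at least 1. Benjamini-Hochberg adjustment ran over all tested genes, with a threshold of 0.05. P-values measure the spread between these libraries, and fold changes on this scale understate changes of low genes. edgeR 4.0.16 and DESeq2 1.42.0 were run on the recovered reads.

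The 9 genes and all lists were chosen with earlier results of these data known. The rule for names covered the 9 genes, up to 4 called genes of each list, the gene of the mutant and the 2 nearest profiles. Other list genes named without a call fall outside it. All 32548 identifiers matched RefSeq TAIR10.1, which gave names, positions and sequence. Alternatives were other pseudocounts, filters, scalings and tests, a replicate block and each library left out.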

Additional observations from a re-analysis of the deposited data

How the results depend on the processing

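None of the 9 genes was called under any of 20 alternatives, of which 15 were planned and 5, all edgeR fits, were added after seeing the data. CLV3 reached an unadjusted p of 0.0296 in limma without the mean-variance trend, with an adjusted p of 0.343. Of 159 log2 fold changes of the 8 tested genes, 142 kept their sign and 17 turned, all with 1 library left out. The lone sample of a genotype was then assumed to vary like the others.

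With 1 library left out, limma and edgeR gave these lowest and highest log2 fold changes. STM ran from -0.021 to 0.33 in limma and from -0.0099 to 0.34 in edgeR. KNAT1 ran from -0.14 to 0.0197 in limma and from -0.15 to 0.0202 in edgeR. KNAT2 ran from -0.034 to 0.80 in limma and from -0.080 to 0.86 in edgeR, and was -0.019 in limma without bdt1 replicate 1. KNAT6 ran from -0.13 to 0.098 in limma and from -0.12 to 0.10 in edgeR, and was 0.080 in limma and 0.0693 in edgeR without bdt1 replicate 1. CUC2 ran from -0.12 to 0.0565 in limma and from -0.13 to 0.0612 in edgeR. CUC3 ran from -0.18 to 0.093 in limma and from -0.19 to 0.095 in edgeR, and was 0.084 in limma and 0.0822 in edgeR without bdt1 replicate 2. CUC1 (0.20 to 1.13) and CLV3 (0.98 to 4.69) were positive in every such fit.

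Counts over all genes moved more. Leaving out 1 library gave 0 to 540 higher and 0 to 776 lower genes in limma, and 289 to 1225 higher and 225 to 1273 lower in edgeR. In edgeR 870 were higher and 1245 lower without Col-0 replicate 1, and 334 were lower without bdt1 replicate 2. limma called 0 genes without bdt1 replicate 1 or 2, with 1573 and 1611 at an unadjusted p under 0.05. Of the lists, 0 to 1 gene in limma and 0 to 5 in edgeR were called in each direction, with 4 higher and 1 lower in edgeR without Col-0 replicate 1. Without the trend limma called 42 genes higher and 6 lower, and a pseudocount of 0.1 gave 123 lower.

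The replicate numbers are shared between genotypes, but no label says that they pair the libraries, and over 20355 genes the gap between replicates 2 and 1 correlated at 0.014 between genotypes. With a replicate block limma called 901 higher and 917 lower, with 5 and 1 from the lists. With the replicate block edgeR called 1052 higher and 1113 lower, with 5 and 4 from the lists. The block changed no call of the 9 genes. The mean filter of 10 removed CLV3, and depth limits CLV3 and WUS, which had at most 3 reads in a library.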
